A study of Mus musculus with 2 samples.

Results

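The 34 genes described here encode the light-transduction cascade of the rod photoreceptor and the outer segment that houses it. They were taken by symbol from a list of rod genes sorted by function, and all 34 were present among the 31053 genes of both count matrices. The list holds 16 cascade genes, of which 6 act in activation, 6 in shut-off and 4 in cGMP synthesis, together with 3 channel and exchanger genes, 10 disc and outer segment genes and 5 ciliary transport genes.

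In a rod, light activates the G protein transducin, which releases the inhibition of phosphodiesterase 6, so that cGMP is hydrolysed and the cGMP-gated cation channel closes. Recovery needs the shut-off proteins and new cGMP from guanylate cyclase under the control of calcium-binding activators. These reactions take place on or beside stacked membrane discs in the outer segment, which is renewed continuously from its base through a connecting cilium and is contacted by the retinal pigment epithelium.

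The study compared single retinal cells of mice given NaIO3 (sodium iodate), an oxidant toxic to the pigment epithelium, with those of vehicle controls, using the 10x Genomics platform. The NaIO3 group received 20 mg/kg in PBS intravenously, and the PBS group received the same volume of PBS. Eyes were taken at day 7, the retinas of 6 mice per group were pooled and digested with papain and DNase I, and each group is 1 library. The file names carry C57 for both groups, while the labels give no genotype, sex or age. Because each group is a single library of pooled animals, no difference below has a replicate check and no test was run. The intervals are exact 95% intervals that cover counting error only.

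Both libraries are labelled CD11b+ microglia, CD11b being an integrin subunit of microglia and other myeloid cells. Selection with CD11b beads is described for the NaIO3 cells only, so that treatment and selection cannot be told apart. The cells went against the label. Of 5573 cells kept in the PBS library, 5191 met a rod gate that used none of the 34 genes, and 14 met a microglia and immune gate. Of 9441 kept cells in the NaIO3 library, 5627 met the rod gate and 1840 the microglia and immune gate. The rod gate asked for at least 1 UMI (unique molecular identifier, a counted molecule) of 9 other rod genes and for less than 0.5% of UMIs from each of 8 lists of markers of other cells.

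The gated rods had similar depth, with a median of 2389 UMIs in the PBS library and 2476 in the NaIO3 library, but their mitochondrial shares differed, with medians of 7.04% and 2.08%. The nuclear transcript Malat1 took 4.27% of the PBS rods' UMIs and 4.79% of the NaIO3 rods' UMIs. Most marker lists of other cells summed higher in the NaIO3 rods. All 12 genes of the microglia and immune list were above their PBS level, with a sum of 17.8 against 206 CPM (a gene's UMIs scaled to the same total of UMIs in each set of gated cells) and Ptprc at 0 in the PBS rods. Müller and astrocyte markers summed to 455 against 929 CPM, with 9 of 10 above the PBS level. Bipolar markers summed to 204 against 498 CPM, with all 12 above it. Cone markers summed to 339 against 1539 CPM, with 6 of 10 above it, but Gnb3 alone had 106 against 1234 CPM. Arr3 (29.4 against 12.2 CPM), Opn1sw (33.7 against 23.8 CPM) and Opn1mw (26.6 against 24.0 CPM) were among the cone genes below it. The part of other cells' transcripts in the results below was not tested. The 9 rod genes of the gate summed to 6792 and 6546 CPM, with 6 above their PBS level and 3 below it. Nrl, a transcription factor of rods singled out after its values were seen, was at 2012 CPM in the PBS rods and 768 CPM in the NaIO3 rods. The libraries shared 24 barcodes, 12 of which were gated rods in both.

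The 34 genes together gave 11.1% of the rods' UMIs in the PBS library and 6.41% in the NaIO3 library. Their summed level was 1.74-fold lower in the NaIO3 rods (NaIO3 over PBS ratio 0.576, interval 0.575 to 0.577). In single rods the median share was 10.6% with the middle 90% of cells between 6.91% and 14.6% in the PBS library, against 6.78% and 3.95% to 9.80% in the NaIO3 library, so the distributions were shifted and overlapped. All 34 genes passed a minimum of 10 CPM in either library and 20 UMIs in sum. At a fold of 1.5, 14 genes were lower in the NaIO3 rods, where 8.34% of the 9048 genes measured at this level were lower, and 3 were higher, where 30.3% of all genes were higher. The remaining 17 lay within the fold. The median ratio was 0.802 for the 34 genes and 1.23 for all genes. TMM scaling, which evens out the bulk of the genes, moved the median of all genes to 0.909, a shift of -0.43 on the log2 scale. It turned the all-gene calls from 2744 higher and 755 lower (78.4% higher) to 1098 higher and 2024 lower (35.2% higher). Among the 34 it gave 2 higher and 21 lower, adding Gnat1, Pde6a, Grk1, Cngb1, Slc24a1, Tulp1 and Reep6 to the lower genes. In gated cells, fewer copies per cell and more copies of other transcripts cannot be told apart from a share of UMIs.

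**Figure D1:**
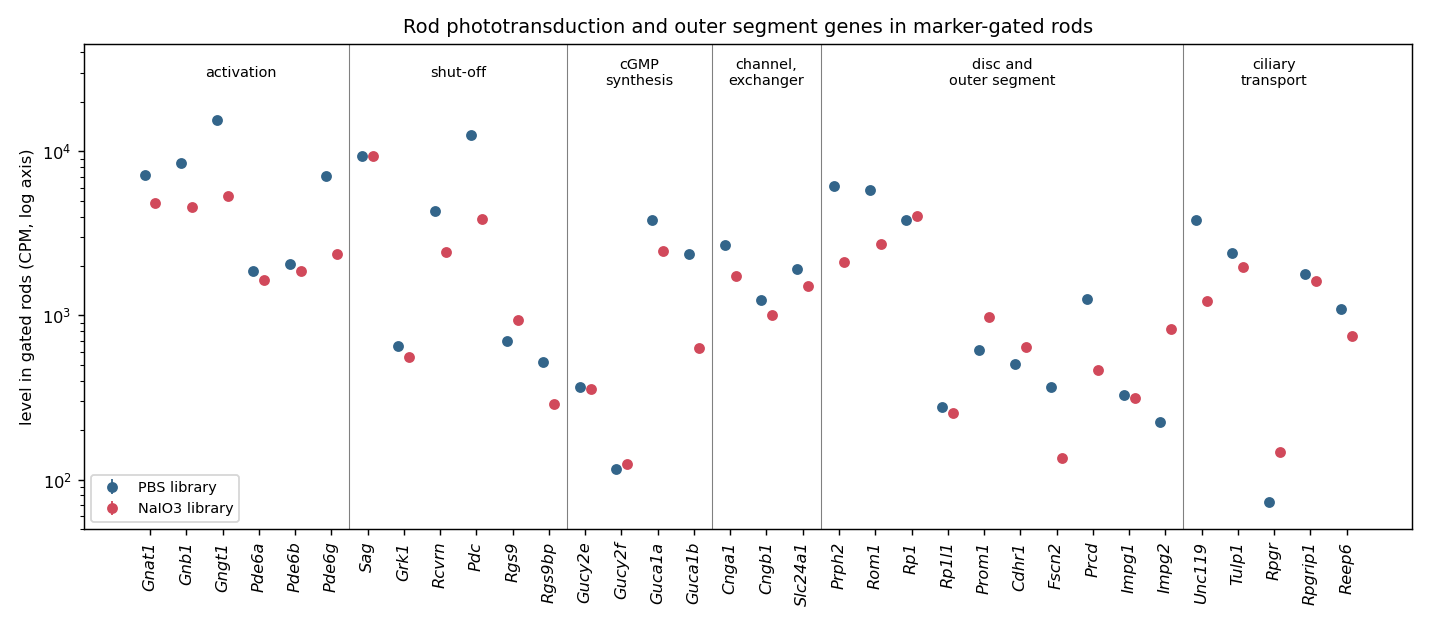
Level of each of the 34 genes in gated rods in CPM on a log axis, 1 point per library, grouped by function, with 95% counting intervals that are mostly smaller than the points. The points of Sag nearly coincide (9389 and 9399 CPM), those of Pdc, Guca1b and Unc119 are the furthest apart downward, and Impg2 is the furthest apart upward; the Sag ratio is 0.750 with TMM scaling.

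The 6 activation genes summed to 42253 CPM in the PBS rods and 20622 CPM in the NaIO3 rods (ratio 0.488), and 3 of the 6 were lower, none higher. Gngt1, the gamma subunit of rod transducin, stood at 15512 CPM in the PBS rods and 5306 CPM in the NaIO3 rods, 2.92-fold lower (2.90 to 2.94). Gnb1, the beta subunit, which many cell types also use, had 8501 and 4604 CPM (ratio 0.542). Gnat1, the rod transducin alpha subunit that carries GTP, had 7211 and 4868 CPM, a ratio of 0.675 that falls just inside the fold. The transducin subunits therefore differed unequally: there were 2.15 Gngt1 UMIs per Gnat1 UMI in the PBS rods and 1.09 in the NaIO3 rods. In rods under 4% mitochondrial UMIs the values were 1.74 and 1.05, a shift of 1.66-fold against 1.97-fold over all gated rods.

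The subunits of phosphodiesterase 6 also differed unequally. The catalytic subunits had the smaller differences, Pde6a with 1856 against 1634 CPM (ratio 0.880; 0.660 with TMM scaling) and Pde6b with 2063 against 1860 CPM (ratio 0.902; 0.676 with TMM scaling). The inhibitory gamma subunit Pde6g had 7110 CPM in the PBS rods and 2350 CPM in the NaIO3 rods, 3.03-fold lower (2.99 to 3.06). Pde6g UMIs per Pde6b UMI went from 3.45 in the PBS rods to 1.26 in the NaIO3 rods, while Pde6a per Pde6b was 0.900 and 0.878. In rods under 4% mitochondrial UMIs, Pde6g per Pde6b was 2.07 and 1.24, a shift of 1.66-fold against 2.73-fold over all gated rods. A ratio within a library shows unequal difference and not which partner differed.

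Of the 6 shut-off genes, 3 were lower and none higher, with a summed ratio of 0.622, and Sag and Pdc lay far apart. Sag, rod arrestin, which caps the phosphorylated visual pigment, stood at 9389 CPM in the PBS rods and 9399 CPM in the NaIO3 rods (ratio 1.001, interval 0.995 to 1.01; 0.750 with TMM scaling). Pdc, phosducin, which binds the beta-gamma subunits of transducin, had 12504 and 3857 CPM, 3.24-fold lower (3.22 to 3.27). Pdc UMIs per Sag UMI were 1.33 and 0.410. Rcvrn, recoverin, the calcium sensor that restrains the pigment kinase, had 4323 and 2441 CPM (ratio 0.565), whereas Grk1, that kinase, had 647 and 558 CPM (ratio 0.863).

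The complex that speeds GTP hydrolysis on transducin also had partners that differed unequally. Rgs9, its catalytic member, had 702 CPM in the PBS rods and 935 CPM in the NaIO3 rods, a ratio of 1.33 that becomes 0.998 with TMM scaling. Rgs9bp, which anchors it in the membrane, had 522 and 289 CPM (ratio 0.554). Rgs9bp per Rgs9 was 0.744 in the PBS rods and 0.309 in the NaIO3 rods.

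In cGMP synthesis the cyclases lay within the fold and their activators beyond it, so that 2 of 4 genes were lower and none higher, with a summed ratio of 0.537. Gucy2e had 367 and 354 CPM (ratio 0.965; 0.723 with TMM scaling), and Gucy2f had 115 and 124 CPM (ratio 1.07; 0.804 with TMM scaling). Guca1b, which encodes guanylate cyclase activator GCAP2, had 2358 CPM in the PBS rods and 634 CPM in the NaIO3 rods. This was the lowest ratio of the 34, 3.72-fold lower (3.65 to 3.79). Its chromosomal neighbour Guca1a, encoding GCAP1, had 3799 and 2453 CPM (ratio 0.646), so that Guca1b per Guca1a was 0.621 and 0.259.

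The channel and exchanger genes had the summed ratio closest to 1 of the groups, 0.733, with 1 of 3 genes lower and none higher. By the median of the genes' ratios, the disc and outer segment group (0.939) was closest to 1, and this group stood at 0.792. Cnga1, the pore-forming subunit of the cGMP-gated channel, had 2679 and 1749 CPM (ratio 0.653), just beyond the fold. Its partner Cngb1 had 1241 and 1009 CPM (ratio 0.813), and Slc24a1, the sodium/calcium-potassium exchanger of the rod membrane, had 1916 and 1517 CPM (ratio 0.792). The Cnga1 and Guca1a calls were the weakest of the lower ones: with the mean of per-cell CPM their ratios were 0.749 and 0.704, and without cells over 10000 UMIs 0.722 and 0.687.

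The disc and outer segment genes went in both directions, with 4 of 10 lower, 2 higher and a summed ratio of 0.646. Prph2, peripherin, a tetraspanin of the disc rim, had 6162 CPM in the PBS rods and 2124 CPM in the NaIO3 rods, 2.90-fold lower (2.87 to 2.93). Its partner Rom1 had 5800 and 2712 CPM (ratio 0.468). Prcd, a small disc membrane protein, had 1257 and 465 CPM (ratio 0.370), and Fscn2, a photoreceptor fascin that bundles actin, had 365 and 135 CPM (ratio 0.369). These 4 are the lower genes of the group.

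The proteoglycans of the matrix around the outer segments diverged. Impg2 had 225 CPM in the PBS rods and 823 CPM in the NaIO3 rods, a ratio of 3.66 (3.54 to 3.79), while Impg1 had 326 and 315 CPM (ratio 0.965). Impg2 per Impg1 was 0.690 in the PBS rods and 2.62 in the NaIO3 rods, the largest shift upward among the 13 partner pairs examined. Prom1, prominin, found on the evaginating membranes at the base of the outer segment, had 619 and 979 CPM (ratio 1.58; 1.18 with TMM scaling and 1.36 with a 1% limit on other-cell markers). Cdhr1, a protocadherin of the same site, had 503 and 646 CPM (ratio 1.28; 0.963 with TMM scaling). The axonemal microtubule protein Rp1 had 3832 and 4055 CPM (ratio 1.06; 0.793 with TMM scaling), and its relative Rp1l1 had 277 and 253 CPM (ratio 0.914).

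Of the 5 ciliary transport genes, 1 was lower and 1 higher, with a summed ratio of 0.621. Unc119, a chaperone that carries the lipid-modified transducin alpha subunit, had 3804 CPM in the PBS rods and 1220 CPM in the NaIO3 rods, 3.12-fold lower (3.07 to 3.16). Rpgr, a protein of the connecting cilium, had 72.8 and 147 CPM, from 1308 and 3410 UMIs (ratio 2.02, interval 1.90 to 2.16). Its annotated span overlaps Srpx on the same strand, so reads that fit both genes may not have been counted as Rpgr and its level is uncertain. Rpgrip1, which tethers Rpgr at the cilium, had 1789 and 1616 CPM (ratio 0.904). Tulp1, needed for transport into the outer segment, had 2411 and 1966 CPM (ratio 0.816), and Reep6, an endoplasmic reticulum protein of rods, had 1091 and 746 CPM (ratio 0.684), just inside the fold.

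**Figure D2:**
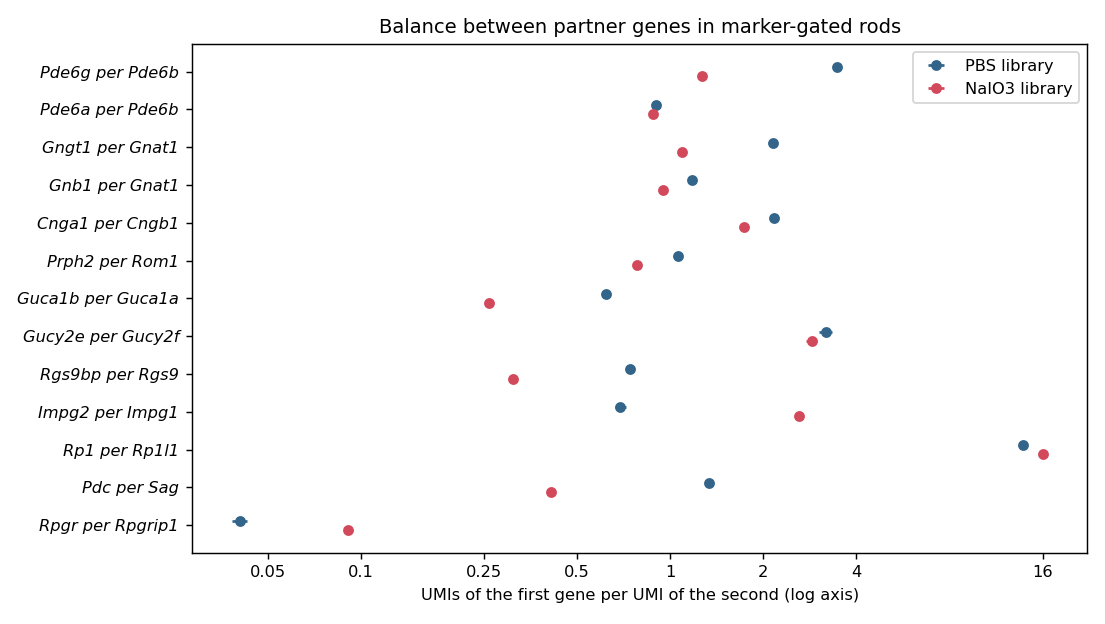
UMIs of one gene per UMI of a partner gene in gated rods (log axis), 1 point per library with 95% counting intervals. Pde6a per Pde6b is nearly the same in both libraries (0.900 and 0.878), whereas Pde6g per Pde6b, Guca1b per Guca1a, Rgs9bp per Rgs9 and Pdc per Sag are lower in the NaIO3 rods and Impg2 per Impg1 is higher.

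The share of rods with at least 1 UMI was compared after thinning each cell to 1000 UMIs, which left 4912 PBS rods (279 shallower rods left out) and 5015 NaIO3 rods (612 left out). Guca1b was detected in 88.4% of thinned PBS rods and 46.9% of thinned NaIO3 rods, and before thinning in 96.8% and 74.2%. Impg2 was detected in 16.9% and 51.3% of thinned rods (38.2% and 76.2% before thinning), Unc119 in 96.4% and 70.2% (98.8% and 89.1%), and Prom1 in 42.6% and 60.7% (71.8% and 82.2%). The 1840 microglia-gated NaIO3 cells had a median of 3129.5 UMIs. Before thinning, Guca1b was in 12.2% of them, Impg2 in 11.7%, Prom1 in 15.5% and Unc119 in 40.6%. After thinning the shares were 3.26%, 4.01%, 4.76% and 10.5%. Free rod RNA and the cells' own transcripts cannot be told apart in them. Unc119 stood there at 7.53% of its rod level, against 3.05% for Guca1b, 2.69% for Impg2 and 3.14% for Prom1. The 14 microglia-gated PBS cells, at a median of 2009.5 UMIs, held Guca1b in 35.7%, Impg2 in 7.14%, Prom1 in 14.3% and Unc119 in 42.9% of cells before thinning. The rod shares of these 4 genes before thinning lay above these values in both libraries.

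The rods were then divided by the mitochondrial share of their UMIs, since the libraries differ in it. Of the PBS rods, 1511 lay under 4%, 1535 at 4 to 8% and 2145 at 8 to 15%; of the NaIO3 rods, 4425, 956 and 246. The summed level of the 34 genes was lower in the NaIO3 library in each stratum, with ratios of 0.663, 0.585 and 0.519 from the lowest to the highest share. Under 4%, 3 genes were higher and 11 lower, where 20.5% and 17.4% of all genes were. At 4 to 8%, 3 were higher and 13 lower (all genes 23.6% and 11.6%). At 8 to 15%, 2 were higher and 16 lower (all genes 34.5% and 12.9%). The median ratio of the 34 genes was 0.806, 0.763 and 0.757, against 1.03, 1.12 and 1.22 for all genes.

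**Figure D3:**
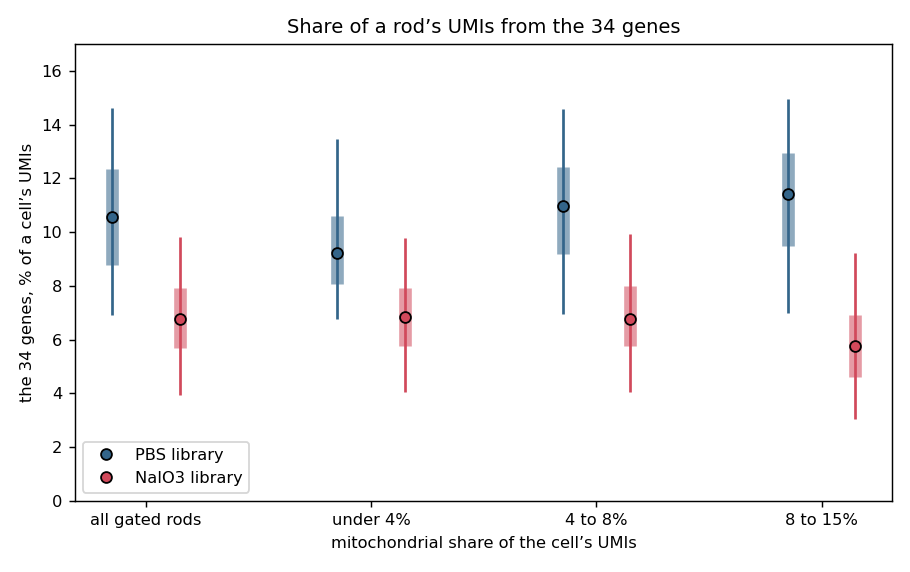
Percent of a rod's UMIs that come from the 34 genes, for all gated rods and for rods in each mitochondrial stratum; points are medians over cells, bars the middle 50% and lines the middle 90% of cells of 1 library. The PBS medians are 9.22%, 10.98% and 11.4% across the strata and the NaIO3 medians 6.83%, 6.78% and 5.75%.

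Scaled to total UMIs, 4 genes kept the low ratios given below, which lay close together across the strata. Those of Fscn2 lay about as close together, at 0.419, 0.360 and 0.353 from the lowest to the highest mitochondrial share. TMM factors for the PBS and NaIO3 rods were 0.987 and 1.01 under 4% but 0.850 and 1.18 at 8 to 15%. With TMM scaling the ratios in this paragraph and the next would therefore be lower and further apart. The Pdc ratio was 0.325, 0.328 and 0.291 from the lowest to the highest mitochondrial share, and its level was 11774, 12485 and 12741 CPM in the PBS rods against 3822, 4100 and 3704 CPM in the NaIO3 rods. The Guca1b ratio was 0.297, 0.257 and 0.252, that of Prph2 0.353, 0.331 and 0.311, and that of Unc119 0.344, 0.321 and 0.299. For these 4 genes the PBS level in each stratum was well above the NaIO3 level in any stratum. Impg2 was the opposite, with 198, 218 and 237 CPM in the PBS rods against 824, 833 and 753 CPM in the NaIO3 rods and ratios of 4.17, 3.82 and 3.18.

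Other genes depended on the stratum through the PBS rods. Gnat1 had 5185, 7187 and 7852 CPM in the PBS rods against 4887, 4871 and 4275 CPM in the NaIO3 rods, so its ratio was 0.942 under 4% and 0.544 at 8 to 15%. Gngt1 had 9035, 15251 and 17665 CPM in the PBS rods against 5141, 6255 and 5528 CPM, with ratios of 0.569, 0.410 and 0.313. Rcvrn (0.821 to 0.466), Gnb1 (0.734 to 0.460), Pde6g (0.498 to 0.284) and Prcd (0.483 to 0.286) had their ratios in the same order. Cdhr1 was higher in the NaIO3 rods under 4% (336 against 644 CPM, ratio 1.92) and near equal at 8 to 15% (579 against 605 CPM, ratio 1.05).

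Rp1, Rpgrip1 and Rpgr ran the other way. With TMM scaling their ratios below would be lower and closer together, with Rp1 and Rpgrip1 lower in the NaIO3 rods in each stratum. Rp1 had 5641, 3989 and 3182 CPM in the PBS rods and 4091, 3886 and 3829 CPM in the NaIO3 rods, so its ratio went from 0.725 to 1.20. Rpgrip1 had 2880, 1955 and 1355 CPM in the PBS rods and 1641, 1485 and 1538 CPM in the NaIO3 rods, with a ratio of 0.570 under 4% and 1.14 at 8 to 15%. Rpgr was 129, 78.4 and 52.0 CPM in the PBS rods and 152, 123 and 125 CPM in the NaIO3 rods, so the call for higher Rpgr does not hold under 4% (ratio 1.18).

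**Figure D4:**
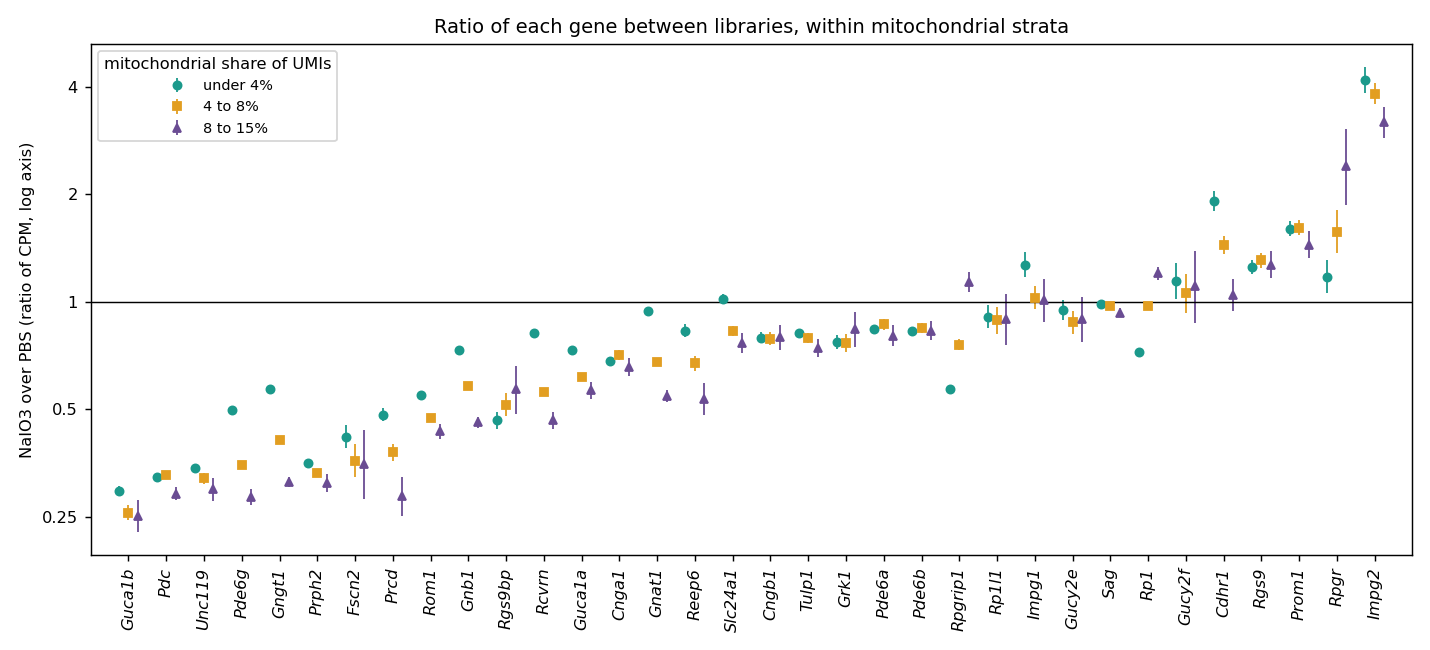
NaIO3 over PBS ratio of each gene's CPM (log axis) in rods of 3 mitochondrial strata, with 95% counting intervals, genes in order of their ratio over all rods. Guca1b, Pdc, Unc119 and Prph2 lie between 0.252 and 0.353 in each stratum and Impg2 between 3.18 and 4.17, while the strata of Gnat1, Rcvrn, Rp1 and Rpgrip1 are spread apart.

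Read within each library, rods at 8 to 15% mitochondrial UMIs differed from rods under 4% mainly in the PBS library. There, 5 of the 34 genes were at least 1.5-fold higher at 8 to 15% (all genes 5.26%): Gngt1 at 1.96, Cdhr1 at 1.72, Pde6g at 1.69, Rcvrn at 1.57 and Gnat1 at 1.51. The 3 that were lower were Rp1 at 0.564, Rpgrip1 at 0.471 and Rpgr at 0.403 (all genes 41.3%). In the NaIO3 rods none of the 34 passed the fold in either direction (all genes 3.93% higher and 12.9% lower), and the ratios ran from 0.818 for Reep6 to 1.15 for Impg1. The summed ratio of the 34 genes between these strata was 1.20 in the PBS rods and 0.936 in the NaIO3 rods. The Malat1 share moved with these strata, at 8.26%, 4.56% and 2.87% of UMIs in the PBS rods and 4.95%, 4.08% and 3.80% in the NaIO3 rods. Depth moved with them too, with median UMIs of 1685, 2580 and 2968 in the PBS rods and 2532, 2316.5 and 2030 in the NaIO3 rods. The part of either in the result was not tested.

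The lower genes were mostly those with short transcripts. Annotated transcript length and the ratio between libraries were correlated across the 34 genes (Pearson r = 0.613 on log2 scales, Spearman rho = 0.636, n = 34), as a description across genes, which share both libraries and are not independent replicates. The 17 genes with transcripts of up to 2739 bases had a median ratio of 0.468 and 12 of them were lower. The 17 genes with transcripts of 2799 bases or more had a median ratio of 0.914 and 2 were lower, Gnb1 and Rgs9bp. Of all tested genes, 8.34% were lower. Across the 8730 tested genes with a length, the median ratio was 1.05 for the 3728 shorter and 1.36 for the 5002 longer ones. The rank correlation of length and ratio across them was 0.349. In rods under 4% mitochondrial UMIs it was 0.495 for the 34 genes and 0.150 for all genes. The Guca1b, Pdc, Unc119, Pde6g and Gngt1 transcripts are among the short ones, as are those of Guca1a and Sag, whose ratios were 0.646 and 1.001 (Sag 0.750 with TMM scaling). The part of length in the result was not tested.

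**Figure D5:**
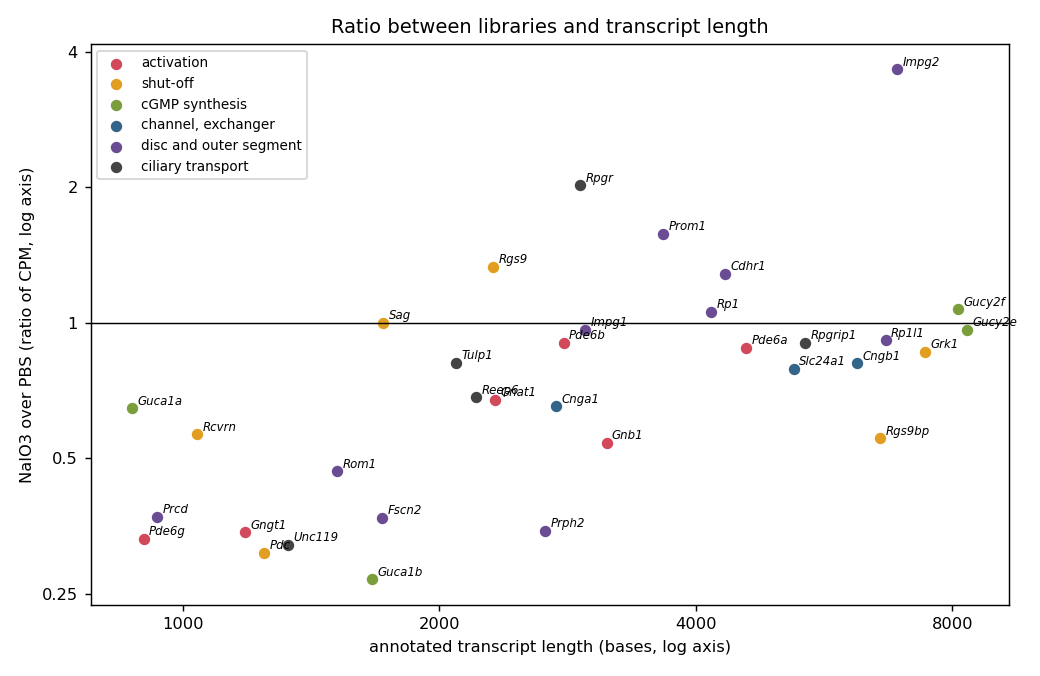
NaIO3 over PBS ratio of each gene's CPM in gated rods (log axis) against the length of its annotated transcript in bases (log axis), 1 point per gene, coloured by function. The 9 points below 0.5 lie under 2739 bases, with Sag and Rgs9 as short transcripts near or above 1 (0.750 and 0.998 with TMM scaling), and Impg2 is the highest point.

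The promoters of the genes were read for the core motif of CRX, a homeodomain factor of photoreceptors (TAATCC), and for part of the recognition site of the rod factor NRL (TGCTGA), each on both strands. The motifs were searched as exact letters and cannot overlap on the same strand. RefSeq windows of 300 bases (GRCm38.p6, from 250 bases before each transcript start) were at hand for 25 of the 34 genes, as 29 windows. TAATCC was in 10 of the 29 windows (34.5%), against 7.06% of all 32851 windows, and TGCTGA was in 6 of 29 (20.7%), against 19.5%. Among genes with a window, 5 of the 10 lower genes and 5 of the 15 others had TAATCC. A match is a run of letters and not a measured binding site, and a missing match says only that the letters are not in the window.

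The 120 bases before the start are printed for 5 genes, chosen because they span the ratios seen here. They are Pdc, far lower in the NaIO3 rods, Guca1a, lower (ratio 0.646), and Cngb1, below 1 but within the fold (ratio 0.813). The others are Sag, near equal (0.750 with TMM scaling), and Impg2, higher. Each stretch is in the gene's own 5′ to 3′ direction, with TAATCC or its reverse complement in capitals. The Pdc stretch is chr1:150319297-150319416 on the plus strand, Guca1a chr17:47400607-47400726 on the minus strand, Cngb1 chr8:95306586-95306705 on the minus strand, Sag chr1:87803560-87803679 on the plus strand and Impg2 chr16:56204193-56204312 on the plus strand.
Pdc: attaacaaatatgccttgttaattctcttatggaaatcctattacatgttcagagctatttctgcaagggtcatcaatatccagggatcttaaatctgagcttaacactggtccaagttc
Guca1a: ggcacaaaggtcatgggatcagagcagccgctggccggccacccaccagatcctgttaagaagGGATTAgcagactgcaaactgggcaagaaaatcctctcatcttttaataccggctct
Cngb1: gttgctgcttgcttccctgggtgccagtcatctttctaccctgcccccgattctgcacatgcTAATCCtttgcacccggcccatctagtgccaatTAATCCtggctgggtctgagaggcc
Sag: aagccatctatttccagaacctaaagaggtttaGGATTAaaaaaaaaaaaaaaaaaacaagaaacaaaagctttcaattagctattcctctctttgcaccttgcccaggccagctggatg
Impg2: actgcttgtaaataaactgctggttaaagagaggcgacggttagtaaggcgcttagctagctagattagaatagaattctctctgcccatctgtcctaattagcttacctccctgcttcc
Cngb1 has the core at 58 and at 25 bases before the start, Guca1a has it at 57 and Sag at 87. The Pdc and Impg2 stretches have no copy. These 5 genes do not stand for the list. Gngt1, also far lower (ratio 0.342), has the core at 44 bases before the start, and Slc24a1 (ratio 0.792) has none in its window. No window was at hand for Guca1b, the gene with the lowest ratio.

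A further 31 genes of the rod, for ciliary proteins, ion channels and pumps, retinoid handling and disc or cargo proteins, served as a comparison list. All 31 passed the minimum. Of these, 4 were higher and 2 lower, where 30.3% of all genes were higher and 8.34% lower. Their median ratio was 0.993, against 1.23 for all genes. The 4 highest ratios were those of Cerkl (53.0 against 189 CPM, ratio 3.57), Mak, a kinase of the photoreceptor cilium (300 against 695 CPM, ratio 2.31), Arl6, a small GTPase of ciliary traffic (357 against 677 CPM, ratio 1.90), and BC027072 (178 against 303 CPM, ratio 1.70). The lowest ratios given here were those of Abca4, the retinoid flippase of the disc rim (608 against 308 CPM, ratio 0.507), Rab28 (292 against 183 CPM, ratio 0.624), and Arl3, which releases lipidated cargo in the cilium (626 against 423 CPM, ratio 0.676). With TMM scaling 2 were higher and 10 lower, where 1098 of all genes were higher and 2024 lower.

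The 34 genes were also read in the other gated cells. In the microglia-gated cells they gave 1.99% of UMIs in the PBS library, 17.9% of the rod level, and 0.232% in the NaIO3 library, 3.62% of the rod level. In Müller and astrocyte cells they gave 0.995% (36 PBS cells) and 2.38% (321 NaIO3 cells), the latter 37.1% of the rod level at a median depth of 16528 UMIs. In bipolar cells the share was 0.702% (38 cells) and 0.744% (459 cells). Gated cones held 6.87% (186 cells) and 4.03% (169 cells), and Gnat1, which cones do not use, stood there at 48.7% and 48.3% of its rod level, so the cone values hold rod RNA. In these cones Guca1b had 938 and 288 CPM, Pdc 6218 and 2244 CPM, and Impg2 296 and 693 CPM.

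Within the NaIO3 library, rods were divided by transcripts of stress. The 3824 rods with a UMI of Edn2 or Fgf2, injury-response genes of photoreceptors, had a median of 3020 UMIs, and the 1803 without had 1698. The summed level of the 34 genes in the former was 0.936 of that in the latter, and 0 of the 34 passed a fold of 1.5 in either direction, where 4.44% of all genes were higher and 3.67% lower. Impg2 had the highest ratio (628 CPM without and 859 CPM with, 1.37) and Pdc the lowest (4573 and 3726 CPM, 0.815). The 1705 rods with 2 or more UMIs of an interferon-response list had 0.818 of the level of the other 3922, again with 0 of 34 past the fold, where 7.63% of all genes were higher and 0.592% lower. Pdc was at 0.699, Gngt1 at 0.703 and Sag at 0.808. Deeper cells are more likely to hold such a UMI, with medians of 3929 against 2158.5 UMIs, and the part of depth was not tested.

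Depth was examined by itself across the libraries. The summed ratio of the 34 genes was 0.647 in rods of 500 to 1000 UMIs, 0.741 at 1000 to 2000, 0.613 at 2000 to 4000 and 0.526 above 4000 UMIs. All 34 genes passed the minimum in each. At 500 to 1000 UMIs, 13 genes were lower and 2 higher, where 15.3% and 29.4% of all genes were. At 1000 to 2000 UMIs, 10 were lower and 3 higher (all genes 17.6% and 19%), at 2000 to 4000 UMIs 13 and 4 (all genes 10% and 30.5%), and above 4000 UMIs 17 and 2 (all genes 6.98% and 38.4%). The median ratio of all genes was 1.12, 1.03, 1.21 and 1.33 in the same order.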

How the data were processed

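Per the labels, single cells of mouse retina were profiled on the 10x platform in 2 libraries, PBS and NaIO3. The deposited values are unnormalised UMI counts, 1 matrix per library, which the authors made with Cell Ranger (version 3.0.2, per the file headers) on mm10 (per the submitters' processing notes). The aligner settings and gene annotation are not given in the sources used here. Total UMIs were 26605477 in 6242 PBS barcodes and 75981079 in 9746 NaIO3 barcodes.

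Cells with at least 500 UMIs, 300 genes and at most 15% mitochondrial UMIs were kept. No doublet caller was used. Instead, rods with 0.5% or more of UMIs from another class's markers were left out, and an alternative left out cells over 10000 UMIs. Other classes needed 1% or more of UMIs from their own list and less than 0.5% from each other non-rod list. Counts were summed over gated cells of a library and scaled to CPM, with exact Poisson intervals for levels, exact conditional binomial intervals for ratios and exact binomial intervals for shares. Intervals and zero counts are subject to counting error only. A gene was called at a 1.5-fold difference where it reached 10 CPM in 1 of the libraries or both and had 20 UMIs over the pair. The fold is a size rule and not a test.

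Transcript lengths and positions came from GENCODE on the mm10 assembly, with the longest principal transcript of each gene. Promoter windows came from RefSeq (GRCm38.p6), and 23 of the 29 were seen to run into an annotated transcript of their gene. The functions were tested on simulated data. Alternatives included TMM factors (edgeR 4.0.16, R 4.3.3), used for scaling only, median-of-ratios scaling, other totals, gates and folds. Python 3.11.15 with numpy 2.4.6, scipy 1.17.1 and pandas 2.3.3 did the rest. All 34 genes were named, with the 4 highest and 4 lowest of the comparison list, of which 1 is not reported here. The genes and lists were chosen with earlier results of these data known.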

Additional observations from a re-analysis of the deposited data

Results flagged for a closer look

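Scaled to total UMIs, Rp1 and Rpgrip1 had ratios between libraries on opposite sides of 1 in rods of different mitochondrial share. The Rp1 ratio (NaIO3 over PBS) was 1.20 at 8 to 15% mitochondrial UMIs, 0.725 under 4% and 0.974 at 4 to 8%. The Rpgrip1 ratio was 1.14 at 8 to 15%, 0.570 under 4% and 0.760 at 4 to 8%. The TMM factors at 8 to 15% were 0.850 for the PBS rods and 1.18 for the NaIO3 rods. With TMM scaling both ratios would lie below 1 in each stratum. In both genes the PBS level differed across the strata and the NaIO3 level differed less. The strata were defined from the data and are not groups of the study, each ratio rests on 1 library per group, and the difference between strata was not tested.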

How the results depend on the processing

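The summed level of the 34 genes stayed below 1 in the NaIO3 rods under each alternative run, from 0.429 to 0.643. It was 0.432 with TMM scaling, 0.429 with median-of-ratios scaling, 0.545 with totals without mitochondrial genes, 0.643 with the mean of per-cell CPM and 0.585 with the 3 strata weighted equally. Among gates it was 0.573 with no positive rod marker, 0.578 with at least 2 rod marker UMIs, 0.623 and 0.499 with other-class limits of 0.25% and 1%, 0.575 with at least 1000 UMIs and 0.625 without cells over 10000 UMIs. Of the alternatives chosen after seeing the data, totals without mitochondrial genes and the 34 genes gave 0.513, rod markers of at least 0.3% of UMIs gave 0.591 and a cone list without Gnb3 gave 0.574. Within strata, TMM scaling gave 0.646, 0.486 and 0.375 from the lowest to the highest mitochondrial share. Totals without mitochondrial genes gave 0.579 at 4 to 8%, and no positive rod marker gave 0.661 under 4% and 0.510 at 8 to 15%.

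At a fold of 2, 9 of the 34 genes were lower, where 288 of the 9048 genes that passed the minimum were. Of the comparison list, TMM scaling gave 2 higher and 10 lower, median-of-ratios scaling 2 and 11, and a fold of 2 gave 2 and 0. Its lower genes numbered 5 with totals without mitochondrial genes, 8 without these and the 34 genes, 1 with the per-cell mean, 4 with equal strata and 7 with a 1% limit. Among all genes, TMM scaling gave 1098 higher and 2024 lower, median-of-ratios scaling 984 and 2010, a fold of 2 gave 1189 and 288, and all genes with a UMI gave 9736 and 2204. Totals without mitochondrial genes and the 34 genes gave 1202 lower genes. Prom1 lost its call under TMM scaling, median-of-ratios scaling, both reduced totals and the 1% limit. Guca1a and Cnga1 lost theirs with the per-cell mean, the 0.25% limit and cells over 10000 UMIs left out, and Cnga1 also with equal strata and with the 0.3% rod markers. The cause was not tested. No paired analysis was possible because each group is 1 library, and for the same reason no replicate could be left out. Depth limits Rpgr and Gucy2f most, with 79 and 81 UMIs in NaIO3 rods at 8 to 15% mitochondrial share.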
